A study of Mus musculus with 12 samples.

Results

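CpG1668, a synthetic oligonucleotide that activates Toll-like receptor 9 (TLR9), was compared with PBS in 6 of the 12 RNA-seq libraries of the series, 3 from each treatment. The libraries were those titled PBS and CpG1668, and no other rule chose them. The cells were mouse acute myeloid leukaemia (AML) cells of the line CMM, named in the series as inv(16) leukaemia, a form in which part of the core-binding factor gene Cbfb is fused to a myosin gene. All 6 libraries came from the derivative CMM-tetON-shStat3, which carries GFP, mCherry and a hairpin against Stat3 under a doxycycline switch. Neither PBS nor CpG1668 mice received doxycycline, so the hairpin construct was shared by both groups and was not switched on by the study's treatment. Cells were grafted by vein into NSG mice, which lack T, B and natural killer cells but keep neutrophils, monocytes and macrophages. Intravenous treatment began once leukaemia cells made up some 1% of blood cells. The labels give it as 6 daily doses in one place and as 3 doses on alternate days in another. Spleens were taken 1 day after the last dose, and GFP and mCherry double-positive cells were sorted for total RNA. Ages and doses are not given in the labels, nor is it stated whether replicate libraries are different mice. The p-values below therefore measure the spread between libraries, which may be technical.

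TLR9 sits in endosomes and binds DNA rich in unmethylated CpG. UNC93B1 carries it there, proteases cut it into its active form, and MYD88 passes the signal to NF-kappaB and interferon regulatory factors. In myeloid progenitors the genes of the primary granules (myeloperoxidase, elastase, proteinase 3, cathepsin G) are transcribed first, those of the secondary and tertiary granules later, and the monocyte branch switches on its own receptors and lysosomal enzymes. The series asks about TLR9- and IRF8-driven differentiation of these cells. The comparison of CpG1668 with PBS is the part of that question without doxycycline.

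Values are RPKM, reads scaled to the length of the gene and to the mapped reads of the library. The unit does not give libraries a common total, as summed RPKM ran from 358132.9 to 382549.7 over the 6 libraries. Levels are thus compared between libraries only approximately, and other scalings were tried. The files carry no counts. From the step between low values the depth was estimated as 30740000 to 35030000 reads per library, at which 3 reads in a gene of 1 kb are worth 0.0856 to 0.0976 RPKM. Between 11945 and 12194 genes reached 1 RPKM. Across genes, Pearson r was 0.9943 to 0.9961 for pairs from 1 group and 0.9857 to 0.9894 for pairs of a PBS and a CpG1668 library. The progenitor and mast cell genes Kit (15.8 to 18.4 RPKM) and Cpa3 (360.6 to 431.2) were present in all 6 libraries, while Cd34 lay between 0.0336 and 0.317. These genes do not check the label of inv(16) leukaemia. Of 28 stem, progenitor and leukaemia genes 11 had a mean below 1 RPKM, as had 13 of 23 mast cell, basophil and eosinophil genes. Cbfb was at 28.9 to 32.4 RPKM and was not called (log2 change 0.01, adjusted p = 0.973). Stat3 was at 17.9, 16.8 and 16.9 RPKM in PBS and 17.6, 18.5 and 18.4 in CpG1668, overlapping, and was not called (0.08, adjusted p = 0.373). PBS 2 had the highest globin, late neutrophil and splenic macrophage levels of its group, and CpG1668 3 had the highest heat shock and immediate-early levels of all 6. Results that rest on them are given with and without them.

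Of the 12071 genes with a mean of at least 1 RPKM over the 6 libraries, 466 were called at an adjusted p under 0.05, which is 3.86% of those tested. Of these, 283 were higher after CpG1668 (2.34%) and 183 were lower (1.52%). The rises were large and started low, whereas the falls were small and started high. The median ratio of group means was 1.94 among the genes called higher and 1.294 (PBS over CpG1668) among those called lower, and the median PBS level was 2.38 and 12.98 RPKM, against 7.43 for all genes tested. At least 2-fold differences numbered 139 upward and 20 downward, and at least 4-fold differences 71 and 2. In 80 of the 283 genes called higher (28.3%) the PBS mean lay under 1 RPKM, which held for 209 of all genes tested (1.73%). A gene with so low a PBS mean passed the filter only through its CpG1668 libraries. Such genes described below include Ccl3, Ptprc, H2-Q6 and Ighm, besides those marked where they appear. Together the genes called higher took 0.677% to 0.717% of the summed RPKM in PBS libraries and 1.27% to 1.34% in CpG1668 libraries, and those called lower took 5.68% to 6.96% and then 3.22% to 4.15%. Without PBS 2, 259 genes were called higher and 90 lower, and without CpG1668 3 the counts were 205 and 68. They were 219 and 85 without PBS 1, 222 and 95 without PBS 3, 209 and 55 without CpG1668 1, and 178 and 71 without CpG1668 2.

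**Figure D1:**
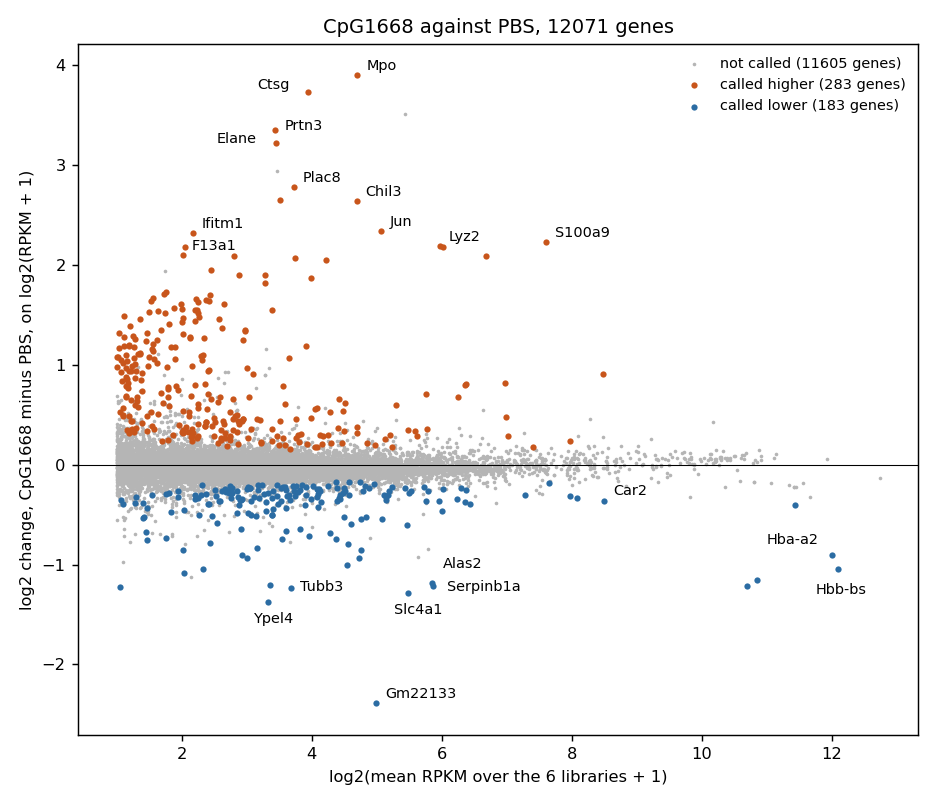
Each point is 1 of 12071 genes, with log2 of its mean RPKM plus 1 on the x axis and its log2 change (CpG1668 minus PBS) on the y axis; orange points were called higher (283) and blue points lower (183). The orange points reach 3.90 for Mpo, and apart from Gm22133 at -2.39 no blue point lies below -1.37 (Ypel4).

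The largest rises were those of the primary granule genes Mpo, Ctsg, Prtn3 and Elane. The list used is wider and also holds Ms4a3 and Hp, so its counts are not of primary granule proteins alone. Of 15 listed genes 14 were in the files and 11 passed the filter, of which 6 rose, 0 fell and 5 were not called (list median log2 change 2.18, against -0.02 for all genes tested). Prtn3 and Ms4a3 had PBS means under 1 RPKM and passed the filter only through their CpG1668 libraries. With a filter of 5 RPKM, 5 of 10 tested members rose (median 1.39). Mpo, myeloperoxidase, which makes hypochlorous acid in the phagosome, was at 2.14, 2.41 and 2.23 RPKM in PBS and at 52.9, 43.2 and 47.2 in CpG1668. That is a 21.1-fold ratio of means (log2 change 3.90, SE 0.074, adjusted p = 3.6e-07). Ctsg, the serine protease cathepsin G, was at 1.07, 1.06 and 1.35 RPKM in PBS and at 28.3, 26.6 and 27.8 in CpG1668, a 23.8-fold ratio (3.73, SE 0.061, adjusted p = 2.4e-07). Its 3 CpG1668 libraries spanned less than 2 RPKM. Prtn3, proteinase 3, went from 0.742, 0.990 and 1.09 RPKM to 20.2, 17.01 and 19.2 (19.98-fold), and Elane, neutrophil elastase, from 1.09, 1.49 and 0.859 to 20.4, 17.6 and 18.6 (16.5-fold). Ms4a3, a membrane protein of granulocyte and monocyte progenitors, rose 11.5-fold to 5.04 to 6.44 RPKM. Hp, haptoglobin, which binds free haemoglobin, rose 8.51-fold to 17.5 to 20.5. In these 6 genes the groups were far apart, and each was called in all 6 fits that leave out 1 library. With the mean level of late neutrophil genes (described below) as a covariate over all 12 libraries, Ms4a3 was no longer called. The other tested members were high in both groups: Calr, an endoplasmic reticulum chaperone, lay at 274.5 to 333.4 RPKM, and Srgn, the proteoglycan that packs granule proteases, at 236.4 to 266.5 with CpG1668 below PBS (adjusted p = 0.271). Nkg7, Cst7 and Cd63 overlapped. Prss57, Clec12a and Fcnb stayed below the filter, with no library above 0.873 RPKM. In all 3 the CpG1668 libraries lay above the PBS libraries without overlap, which held for 10.6% of the genes tested (25.2% in either direction).

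**Figure D2:**
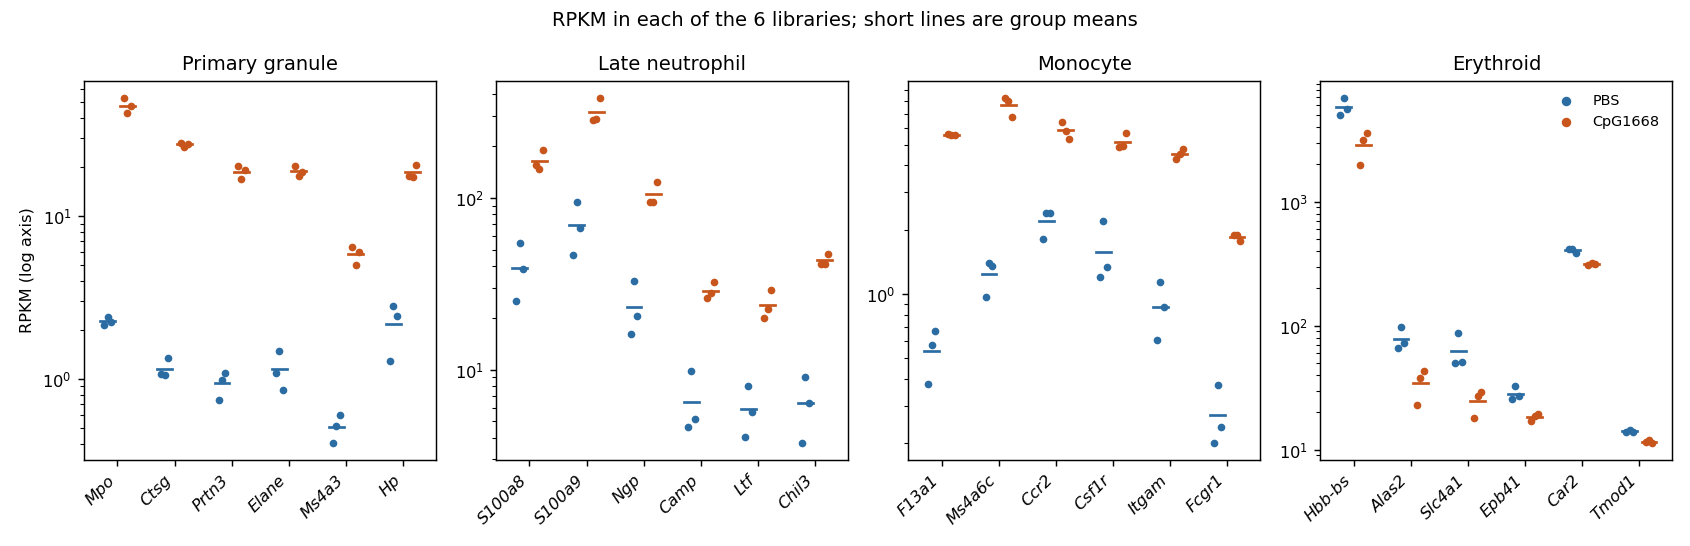
RPKM on a log axis for 24 genes in each of the 3 PBS (blue) and 3 CpG1668 (orange) libraries, with group means as short lines. The genes of the primary granule panel sit near 1 to 2 RPKM in PBS and, apart from Ms4a3, between 17.01 and 52.9 after CpG1668. The erythroid panel is the one with blue above orange.

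The 4 granule protease and peroxidase genes are shown here by the 250 bases before their RefSeq start (GRCm38.p6), because they moved together by 16.5 to 23.8 times. Capitals mark GAGGAAGT or its reverse complement ACTTCCTC, a form of the binding sequence of PU.1, the myeloid factor encoded by Spi1. The windows lie at chr11:87793534-87793783 (plus strand) for Mpo, chr10:79879417-79879666 (plus) for Prtn3, chr10:79886062-79886311 (plus) for Elane and chr14:56102575-56102824 (minus) for Ctsg.
Mpo: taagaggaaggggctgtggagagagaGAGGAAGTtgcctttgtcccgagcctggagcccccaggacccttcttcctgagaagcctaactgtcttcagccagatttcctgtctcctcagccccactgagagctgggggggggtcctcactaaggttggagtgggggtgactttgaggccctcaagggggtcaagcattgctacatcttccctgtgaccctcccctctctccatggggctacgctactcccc
Prtn3: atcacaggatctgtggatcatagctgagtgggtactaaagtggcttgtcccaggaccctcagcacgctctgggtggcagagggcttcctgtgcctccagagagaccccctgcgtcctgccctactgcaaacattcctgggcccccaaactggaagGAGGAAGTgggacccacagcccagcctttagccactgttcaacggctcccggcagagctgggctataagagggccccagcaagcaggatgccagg
Elane: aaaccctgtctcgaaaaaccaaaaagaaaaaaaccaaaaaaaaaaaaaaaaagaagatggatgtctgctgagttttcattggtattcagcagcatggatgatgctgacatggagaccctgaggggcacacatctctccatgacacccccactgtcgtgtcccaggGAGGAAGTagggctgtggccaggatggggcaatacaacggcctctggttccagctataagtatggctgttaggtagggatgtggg
Ctsg: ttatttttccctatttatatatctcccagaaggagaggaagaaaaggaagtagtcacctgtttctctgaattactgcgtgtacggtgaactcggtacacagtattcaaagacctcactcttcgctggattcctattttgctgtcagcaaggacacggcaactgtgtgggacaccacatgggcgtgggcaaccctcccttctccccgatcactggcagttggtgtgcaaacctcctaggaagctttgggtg
The match spans bases 224 to 217 before the start in Mpo, 95 to 88 in Prtn3 and 85 to 78 in Elane, and the window of Ctsg holds none. A window was at hand for 7900 of the 12071 genes tested (65.4%), so shares over gene groups cover only those. GAGGAAGT on either strand was present in 17 of 191 windows of genes called higher (8.90%), 1 of 118 of genes called lower (0.847%) and 206 of 7900 in all (2.61%). Among the other genes called higher with a match were Ctsc, the protease that activates the granule proteases, Fcgr4, Mmp8, S100a8, Pirb and Ly6g. Spi1 itself was at 19.6, 17.6 and 17.4 RPKM in PBS and 19.2, 20.1 and 20.7 in CpG1668, overlapping (0.13, adjusted p = 0.250). A letter match is a description of sequence and shows neither a bound site nor a cause.

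Genes of the secondary and tertiary granules and of late neutrophils rose almost as a whole, by smaller factors. Of 31 listed, 30 were in the files and 19 passed the filter, of which 18 rose and 0 fell (median log2 change 1.56), with ratios from 2.80 (Mmp9, a gelatinase) to 7.51 (Trem3) and a median of 4.48. S100a9, a subunit of the calcium-binding antimicrobial protein calprotectin, was at 46.6, 94.3 and 66.3 RPKM in PBS and 284.4, 289.3 and 379.7 in CpG1668 (log2 change 2.23, SE 0.235, adjusted p = 0.0021). Its partner S100a8 was at 25.1, 54.2 and 38.4, then 154.8, 147.6 and 190.4 (2.09, adjusted p = 0.0032). PBS 2 was the highest PBS library for both, still well under every CpG1668 library. Ngp, neutrophilic granule protein, went from 16.0, 32.8 and 20.5 RPKM to 94.7, 95.0 and 124.3. Camp, the antimicrobial peptide cathelicidin, went from 4.60, 9.75 and 5.15 to 26.1, 27.9 and 32.5. Ltf, the iron-binding protein lactoferrin, went from 4.06, 8.06 and 5.63 to 19.98, 22.6 and 28.9. These genes repeat one pattern, with PBS 1 lowest, PBS 2 highest among PBS, and no overlap. Chil3, a chitinase-like protein, rose 6.77-fold, and Anxa1, annexin A1, which restrains neutrophil recruitment, 4.95-fold. The surface markers Ly6g and Cd177 rose 3.40-fold and 4.83-fold from at most 1.33 RPKM. Retnlg, at 2.63 to 4.002 RPKM in PBS and 5.31 to 10.7 in CpG1668, was not called (adjusted p = 0.067). Summed over the list, the levels were 114.3, 231.4 and 160.6 RPKM in PBS and 682.7, 688.0 and 886.3 in CpG1668. In bulk RNA, more cells of a type and more RNA per cell cannot be told apart. The calls numbered 19 without PBS 2 and 16 without CpG1668 3, 13 with all 12 libraries in 1 model, and 0 where the mean of these genes was itself a covariate in that model. Of the genes called in this text, those still called with that covariate included Mpo, Ctsg, Prtn3, Elane, Hp, F13a1, Plac8, Ms4a6c, Ccl9, Itgam, Fcgr1, Pld4, Klf4, Cebpb, Cxcr4, Ifngr1, Ifitm1, Ifi27l2a, Cd68, H2-Q6, Ighm, Serpinb1a and Gm22133. The call of Fpr2, a formyl peptide receptor, was lost without CpG1668 1 or CpG1668 3. NSG hosts keep neutrophils and monocytes of their own, and the part of host cells in these sums was not tested.

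Most monocyte genes rose as well. Of 32 listed, 25 passed the filter, of which 22 rose and 1 fell (median log2 change 1.28), against 2.34% and 1.52% of all genes tested. The filter favours rises here. Members with PBS means under 1 RPKM, which passed only through their CpG1668 libraries, included Prtn3, Ms4a3, F13a1, Ccl9, Ccl6 and Fcgr1. With a filter of 5 RPKM, 9 members were tested, of which 6 rose and 1 fell (median 0.62). The largest ratios were those of Prtn3 and Ms4a3, shared with the primary granule list, and of F13a1 (10.3-fold). Ms4a6c was at 0.965, 1.39 and 1.36 RPKM in PBS and 8.26, 8.01 and 6.74 in CpG1668 (log2 change 1.95, adjusted p = 5.7e-05). Plac8, a small cysteine-rich protein of myeloid progenitors, was at 1.71, 2.64 and 2.78 RPKM in PBS and 23.3, 21.6 and 21.2 in CpG1668 (2.78, adjusted p = 2.7e-05). F13a1, a coagulation factor subunit made by monocytes, was at 0.377, 0.574 and 0.671, then 5.60, 5.57 and 5.53 (2.10, adjusted p = 1.5e-05). The CpG1668 libraries of both genes lay close together. Lyz2, lysozyme, rose from 15.5, 30.4 and 20.2 RPKM to 93.2, 96.0 and 114.1. Csf1r, the receptor of the monocyte growth factor M-CSF, rose from 1.198, 2.19 and 1.33 to 4.89, 4.93 and 5.67. Ccr2, the chemokine receptor of classical monocytes, rose 2.65-fold to 5.32 to 6.41 RPKM. Lyz2 and Csf1r shared the high PBS 2 value of the neutrophil genes, and Ccr2 did not. The exception in direction was Ahnak, a giant scaffold protein, at 13.02, 13.3 and 15.6 RPKM in PBS and 8.89, 8.77 and 7.66 in CpG1668 (-0.66, adjusted p = 0.0040). Fcgr3 overlapped at 25.2 to 31.9 RPKM, and Lgals3 was not called (0.37, adjusted p = 0.077). Of the 7 members below the filter, Vcan was at 0.0846 to 0.142 RPKM in PBS and 1.16 to 1.38 in CpG1668, and Ly6c2, the classical monocyte marker, at 0.0518 to 0.0871 and 0.413 to 0.853. The list summed to 104.2, 137.5 and 123.6 RPKM in PBS and 310.4, 316.0 and 334.2 in CpG1668. Adjusted for the late neutrophil mean over 12 libraries, 10 of the 22 were called with a list median of 1.00, among them Prtn3, Plac8, F13a1 and Ms4a6c.

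**Figure D3:**
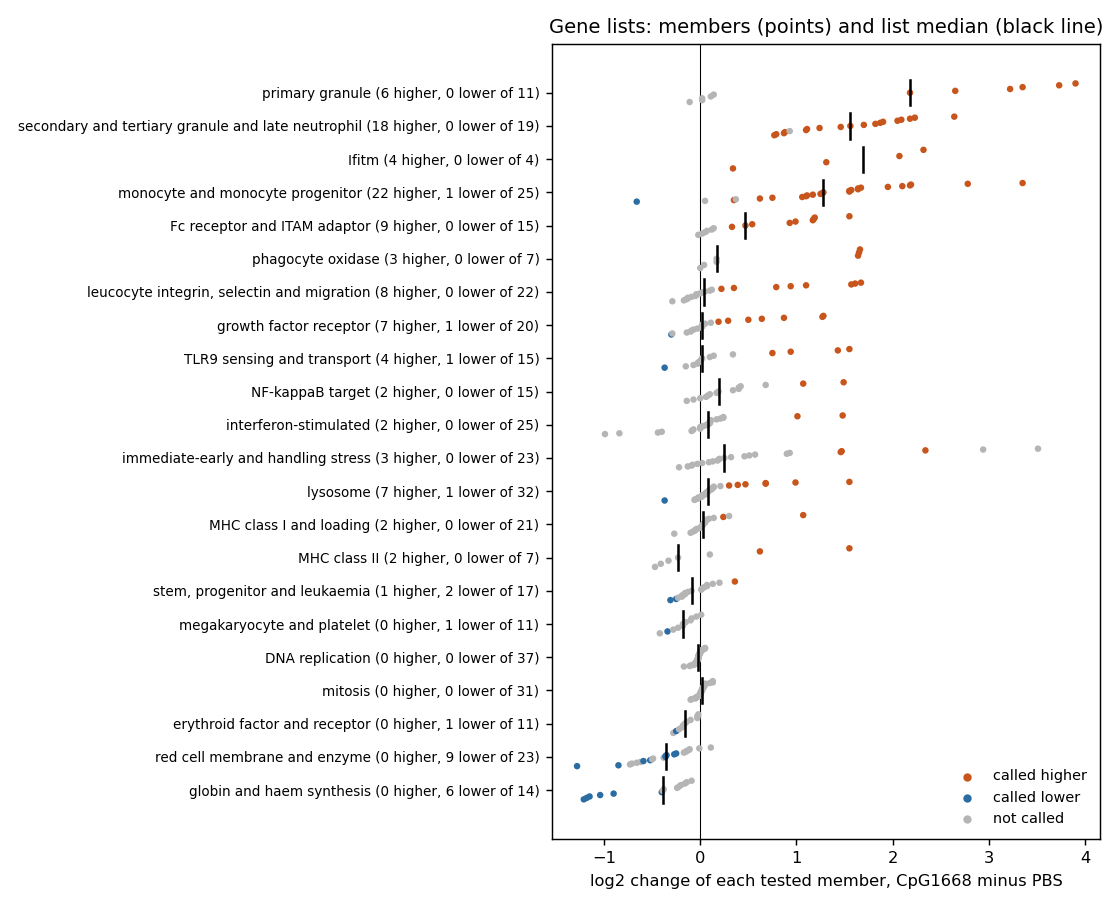
Log2 change (CpG1668 minus PBS) of each tested member of 22 gene lists, coloured by call, with the list median as a black line and the counts of calls in brackets. The medians run from 2.18 for the primary granule list to -0.39 for globin and haem synthesis. The DNA replication and mitosis lists sit at -0.02 and 0.02 with 0 calls.

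Receptors and enzymes by which phagocytes bind and kill rose in part. Of 15 Fc receptor and ITAM adaptor genes tested, 9 rose and 0 fell (median 0.47), against 2.34% and 1.52% of all genes tested. With a filter of 5 RPKM, 3 of 6 tested members rose (median 0.19). Fcgr1, the high-affinity IgG receptor, was at 0.201, 0.373 and 0.239 RPKM in PBS and 1.90, 1.88 and 1.77 in CpG1668 (log2 change 1.17, adjusted p = 2.6e-04). It passed the filter of 1 RPKM only through its CpG1668 libraries. Fcgr4, an activating IgG receptor, rose 4.27-fold. Fgr, a Src family kinase, which phosphorylates ITAMs, rose 3.09-fold. The adaptors started higher and rose less, Tyrobp from 6.42 to 10.3 RPKM up to 18.4 to 22.4, and Fcer1g 1.48-fold, a call lost without CpG1668 2. Syk, the kinase that docks on them, rose 1.31-fold. Pirb, an inhibitory receptor, rose 1.49-fold, a call lost without CpG1668 2 or CpG1668 3. Clec7a, the receptor of fungal glucans, rose 3.84-fold. Of these 9, 1 (Fcgr1) was called with the late neutrophil covariate, and 5 were called without CpG1668 2 and 6 without CpG1668 3, where Fcgr1 and Clec7a were below the filter and not tested. In the phagocyte oxidase, the enzyme that makes superoxide, 3 of 7 tested genes rose. With a filter of 5 RPKM, 4 were tested and 0 rose, as the 3 called genes were below it. With the late neutrophil covariate 0 of the 7 were called. Its catalytic subunit Cybb was at 1.10, 2.26 and 1.56 RPKM in PBS and 7.182, 6.90 and 7.27 in CpG1668 (1.64, adjusted p = 7.2e-04), and the cytosolic subunits Ncf1 and Ncf4 rose 4.87-fold and 4.51-fold. The other membrane subunit, Cyba, at 43.2 to 49.7 and 50.1 to 55.1 RPKM, was not called (adjusted p = 0.209), nor was the GTPase gene Rac2 (0.639).

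Some genes of TLR9 sensing rose, and most genes of its signalling were not called. Tlr9 itself was below the filter, at 0.0616, 0.170 and 0.0654 RPKM in PBS and 0.332, 0.358 and 0.287 in CpG1668, which do not overlap. Fitted without the filter it was not called (log2 change 0.27, adjusted p = 0.077). Of 15 sensing and transport genes tested, 4 rose and 1 fell (median 0.02), against 2.34% and 1.52% of all genes tested. Unc93b1, the carrier of TLR9, was at 2.41, 2.71 and 2.76 RPKM in PBS and 6.00, 5.94 and 5.86 in CpG1668 (0.94, SE 0.051, adjusted p = 1.0e-04). Pld4, an endosomal exonuclease that degrades single-stranded DNA, went from 0.910, 1.35 and 1.249 to 4.47, 4.60 and 5.42, and Ctss, cathepsin S, rose 3.31-fold. Cd14, a co-receptor that takes up CpG DNA, rose 2.08-fold, a call lost without PBS 1, PBS 2, PBS 3 or CpG1668 2. Lgmn, the asparagine endopeptidase that can cut TLR9, fell from 18.6, 19.6 and 18.3 RPKM to 13.2, 14.9 and 14.9 (-0.37, adjusted p = 0.012), a call lost without a filter. Among 24 adaptors, kinases and transcription factors of the pathway, 1 rose (Irf5, 1.197-fold) and 1 fell (Tab3), and both calls were lost in 5 of the 6 fits that leave out 1 library. These were the fits without PBS 1, PBS 2, PBS 3 and CpG1668 2, and without CpG1668 1 (Irf5) or CpG1668 3 (Tab3). Myd88 overlapped at 26.8 to 29.8 RPKM. Of 15 NF-kappaB targets tested, 2 rose. Below the filter, 4 of 5 sensing genes, 2 of 2 adaptors and factors and 8 of 13 NF-kappaB targets were higher in CpG1668 without overlap. This held for 10.6% of the genes tested, and no share was taken over all genes below the filter. It was not particular to these lists, as it held below the filter for 9 of 11 late neutrophil and 7 of 11 stem, progenitor and leukaemia genes. Of the T, NK and innate lymphoid genes it held for 1 of 22. Nfkbia, the inhibitor that ends NF-kappaB signalling, was at 6.88, 7.09 and 6.95 RPKM in PBS and 11.8, 14.8 and 22.1 in CpG1668 (1.07, adjusted p = 0.023), a call lost without PBS 1, PBS 2, PBS 3 or CpG1668 2. The chemokine gene Ccl3 was at 0.0799, 0.204 and 0 RPKM in PBS, near the limit of 3 reads, and 1.34, 1.63 and 3.69 in CpG1668 (1.49, adjusted p = 0.017), a call lost without PBS 1 or PBS 3. The cytokine genes Tnf (1.92 to 2.32 and 2.14 to 4.44 RPKM) and Il6 (5.26 to 6.82 and 6.05 to 8.26) overlapped and were not called.

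Of 25 interferon-stimulated genes tested, 2 rose and 0 fell (median 0.08), against 2.34% and 1.52% of all genes tested. Ifi27l2a was at 1.39, 1.88 and 1.33 RPKM in PBS and 5.20, 6.51 and 6.53 in CpG1668, and Trim30a rose 3.68-fold. Isg15, a ubiquitin-like protein induced by interferon, lay the other way without being called, at 58.6, 86.3 and 62.8 and then 25.5, 45.4 and 45.8 (-0.84, adjusted p = 0.102). Irf7, an interferon regulatory factor, overlapped at 2.14 to 3.08 RPKM. Of 7 Ifitm genes, which encode membrane proteins that restrict virus entry, the 4 that passed the filter all rose. Of these 4, Ifitm1 had a PBS mean under 1 RPKM and passed only through its CpG1668 libraries. With a filter of 5 RPKM, 2 were tested and 2 rose. Calls numbered 3 with all 12 libraries in 1 model and 1 (Ifitm1) with the late neutrophil covariate. Ifitm1 was at 0.383, 0.480 and 0.675 RPKM in PBS and 6.55, 6.91 and 6.11 in CpG1668 (12.7-fold, adjusted p = 1.3e-05). Ifitm3 went from 2.58, 6.27 and 4.14 to 19.7, 21.4 and 20.2, and Ifitm6 rose 3.55-fold. Ifitm2, already at 39.3 to 44.0 RPKM, rose 1.27-fold. GAAA, 2 bases of any kind and GAAA again, a form of the interferon response element searched on both strands, was in 15 of 191 promoter windows of genes called higher (7.85%), 0 of 118 of genes called lower and 2.68% of all 7900, with Ifitm2, B2m, Cybb, Ncf1, Ctss and Fcgr4 among the 15.

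Of 12 myeloid transcription factors tested, 3 rose (Klf4, Cebpb and Jun) and 0 fell (median 0.21), against 2.34% and 1.52% of all genes tested. Klf4 had a PBS mean under 1 RPKM and passed the filter only through its CpG1668 libraries. With a filter of 5 RPKM, 1 of 7 tested members (Jun) rose (median 0.01). Klf4, which drives monocyte differentiation, was at 0.380, 0.429 and 0.370 RPKM in PBS and 2.30, 1.94 and 2.27 in CpG1668 (log2 change 1.19, adjusted p = 2.1e-04). Cebpb, a factor of monocytes and of emergency granulopoiesis, was at 2.14, 2.53 and 2.10, then 6.11, 5.39 and 5.63 (1.05, adjusted p = 2.2e-04). Several lineage factors stayed under the filter of 1 RPKM over the 6 libraries, and 8 of these 9 did not overlap, with CpG1668 higher (10.6% of all genes tested). Irf8, the factor the series names, was at 0.308, 0.464 and 0.355 RPKM in PBS and 1.60, 1.67 and 1.56 in CpG1668, a 4.29-fold ratio (0.93 and adjusted p = 0.0072 in the fit without a filter). Cebpa, which granulocyte and monocyte progenitors need, was at 0.255, 0.485 and 0.247, then 1.54, 1.63 and 1.79 (5.01-fold, adjusted p = 0.015 without a filter). Cebpe, the factor of secondary granule genes, rose 5.44-fold to 1.26 to 1.70 RPKM (adjusted p = 0.017 without a filter). These 3 reached levels of 1 to 2 RPKM, well below Spi1 or Runx1 (25.9 to 30.6). The letters TTNCNNAA or TTNNGNAA, a form of the C/EBP binding sequence, were in 80 of 191 windows of genes called higher (41.9%), 39 of 118 of genes called lower (33.1%) and 27.9% of all. By list, they were in 11 of 15 late neutrophil, 11 of 18 monocyte and 1 of 5 primary granule genes called higher, and in 3 of 5 globin and haem and 3 of 5 red cell genes called lower.

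Receptors and adhesion molecules of leucocytes rose in part. Of 20 growth factor receptor and Janus kinase genes tested, 7 rose and 1 fell (median 0.02), and of 22 adhesion and migration genes 8 rose and 0 fell (median 0.03). Over all genes tested, 2.34% rose and 1.52% fell. Cxcr4, the receptor that holds cells in marrow niches, was at 2.07, 2.28 and 1.96 RPKM in PBS and 8.77, 8.08 and 8.55 in CpG1668 (log2 change 1.61, SE 0.055, adjusted p = 1.2e-05). Both groups were tight and far apart. Itgam, the CD11b integrin chain, rose 5.19-fold, and its partner Itgb2 rose 1.83-fold to a mean of 13.9 RPKM. Ptprc, the common leucocyte antigen CD45, rose 3.41-fold from 0.429 to 0.743 RPKM up to 1.92 to 2.19. Ifngr1, the ligand-binding chain of the interferon gamma receptor, went from 1.67, 2.30 and 1.98 to 6.59, 6.00 and 5.85 (1.27, adjusted p = 2.2e-04). Csf2ra and Csf3r, receptor chains of GM-CSF and G-CSF, rose 1.498-fold and 2.96-fold, and Il6st, the shared signal chain of the interleukin 6 family, 2.16-fold. Csf2rb, the beta chain that pairs with Csf2ra, fell from 173.8, 165.7 and 169.6 RPKM to 134.8, 151.2 and 128.4 (adjusted p = 0.046). That call was lost without PBS 1, PBS 2, PBS 3, CpG1668 1 or CpG1668 3. The small rises of Itgal (without PBS 1, CpG1668 1 or CpG1668 3), Il4ra (without any library but PBS 2), and Jak3 and Selplg (without any of the 6) were lost as well. Of 32 lysosome genes tested, 7 rose and 1 (Lgmn) fell (median 0.08). Psap, the precursor of the saposins, rose from 54.8, 63.2 and 55.0 RPKM to 90.1, 94.1 and 95.0, Cd68 rose 1.71-fold and Ctsc 1.42-fold.

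Erythroid genes, the abundant globins among them, were called lower in part. Of 14 globin and haem synthesis genes tested, 6 fell and 0 rose (median -0.39), and of 23 red cell membrane and enzyme genes 9 fell and 0 rose (median -0.36). Over all genes tested, 1.52% fell and 2.34% rose. A log2 change above 0 was seen in 0 of the 14 and 1 of the 23. Lower without overlap were 11 of the 14 and 20 of the 23, against 14.5% of all genes tested. Hbb-bs, a beta globin, was at 5010, 6847 and 5600 RPKM in PBS and 1974, 3127 and 3572 in CpG1668 (log2 change -1.04, SE 0.218, adjusted p = 0.046). Hba-a1, an alpha globin, was at 2186, 2944 and 2412, then 814.5, 1233 and 1425 (-1.15, adjusted p = 0.025). In both genes CpG1668 1 was lowest and PBS 2 highest, and the groups did not overlap. The pairs Hba-a1 and Hba-a2, and Hbb-bs and Hbb-bt, are near copies among which reads can be split, so their single values are uncertain. Alas2, the first and limiting enzyme of haem synthesis in erythroid cells, went from 66.0, 98.0 and 72.1 RPKM to 23.1, 37.9 and 43.5 (-1.18, adjusted p = 0.040), and Fech, which inserts the iron, fell 1.35-fold. Slc4a1, the red cell anion exchanger band 3, went from 50.2, 87.7 and 50.7 to 18.02, 27.3 and 29.4 (-1.28, adjusted p = 0.035). Smaller and tighter falls were those of Epb41, the membrane skeleton protein 4.1 (25.6, 32.5 and 26.9 RPKM, then 17.1, 18.7 and 19.4), of Car2, carbonic anhydrase 2 (414.8, 413.2 and 387.7, then 308.8, 322.3 and 312.4, -0.36, adjusted p = 0.0047), and of Tmod1, a cap of actin filaments (1.22-fold). These 3 were called in all 6 fits that leave out 1 library, and Epb41 was not called without a filter. The calls of Hbb-bs, Hba-a1, Hbb-bt and Alas2 were lost without PBS 1, PBS 2, PBS 3 or CpG1668 2, those of Hba-a2 without these or CpG1668 1, those of Slc4a1 without any library but PBS 2, and that of Fech without CpG1668 1 or CpG1668 3 or without a filter. Hbb-bs, Hba-a1, Hba-a2, Hbb-bt, Alas2 and Slc4a1 were also not called in the fit without a filter or in that of all 12 libraries, and Hbb-bs and Hba-a2 not under either other scaling. Of the globin and haem genes, 1 was called lower without PBS 1, PBS 2, PBS 3 or CpG1668 2, 4 without CpG1668 1 and 5 without CpG1668 3. Of the red cell membrane and enzyme genes, 8 were called without PBS 2, 6 without PBS 3, 4 without PBS 1 or CpG1668 3, and 3 without CpG1668 1 or CpG1668 2. The erythroid regulators moved less: of 11 tested, 1 (Lmo2) was called lower and 0 higher (median -0.16). Still, 0 of the 11 had a log2 change above 0, and 5 were lower without overlap. Gata1 was at 107.2, 105.2 and 100.8 RPKM in PBS and 89.2, 94.7 and 93.1 in CpG1668 (-0.18, adjusted p = 0.070), and Klf1 overlapped at 44.4 to 52.1 (-0.03, adjusted p = 0.858). The call of Lmo2 was lost without any library but PBS 3. With the late neutrophil covariate 0 members of the globin and red cell lists were called, while their medians were -0.29 and -0.39. The globin median was -0.24 without PBS 2.

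The promoters of an enzyme and a globin among these genes are shown as examples. They were chosen for the letters they hold, so a match in them shows neither a bound site nor a cause. Capitals mark AGATAA or TTATCT, the sequence bound by GATA factors, and CCNCNCCC or GGGNGNGG, a form of that bound by KLF factors, and overlapping KLF matches in Alas2 run into each other. The windows lie at chrX:150547167-150547416 (plus strand) for Alas2 and chr7:103813924-103814173 (minus) for Hbb-bt, both in GRCm38.p6 and 250 bases before the RefSeq start.
Alas2: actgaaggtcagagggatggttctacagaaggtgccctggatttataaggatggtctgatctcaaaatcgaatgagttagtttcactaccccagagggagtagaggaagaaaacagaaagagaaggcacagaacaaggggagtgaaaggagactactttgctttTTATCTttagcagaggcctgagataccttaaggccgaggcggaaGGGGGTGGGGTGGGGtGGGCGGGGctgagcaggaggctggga
Hbb-bt: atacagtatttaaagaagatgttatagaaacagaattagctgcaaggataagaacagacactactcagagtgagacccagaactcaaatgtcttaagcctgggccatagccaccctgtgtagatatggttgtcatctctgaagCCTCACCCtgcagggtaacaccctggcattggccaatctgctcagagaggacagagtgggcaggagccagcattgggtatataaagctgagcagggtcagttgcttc
Alas2 has its GATA match at 86 to 81 bases before the start and 4 KLF matches between 42 and 19. Hbb-bt has a KLF match at 107 to 100 and no GATA match. The GATA letters were in 7 of 118 windows of genes called lower (5.93%), 20 of 191 of genes called higher and 5.67% of all. The KLF letters were in 74.6%, 61.3% and 64.1%, so most windows of any gene hold them. Forms of the AP-1, NF-kappaB and STAT binding sequences were also searched. In that order they were in 7.63%, 1.69% and 3.39% of windows of genes called lower. The shares were 5.76%, 4.19% and 8.38% for genes called higher and 3.73%, 1.39% and 5.75% for all.

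Beyond the erythroid genes, the fall most clearly separated from the spread was that of Serpinb1a, an inhibitor of elastase, cathepsin G and proteinase 3. It lay at 74.3, 84.4 and 82.6 RPKM in PBS and 32.2, 35.8 and 34.4 in CpG1668, a 2.36-fold ratio (log2 change -1.21, SE 0.061, adjusted p = 5.7e-05), and it was called lower under each alternative tried. Tubb3, a tubulin, fell from 13.9, 22.6 and 14.6 RPKM to 5.13, 6.65 and 8.001 (-1.23, adjusted p = 0.016), a call lost without CpG1668 2 or without a filter. Gadd45a, a stress gene that slows the cell cycle, fell 2.56-fold and Ypel4 2.997-fold, with calls lost without any library but PBS 2. The genes that fell at least 4-fold were Gm22133, annotated as a miRNA gene (51.8, 48.7 and 54.7 RPKM, then 14.9, 5.66 and 8.48), and the histone gene H2ac12 (1.97, 1.24 and 2.50, then 0.142, 0.156 and 0.393). Both were named after their values were seen, and H2ac12 was not called without a filter or with all 12 libraries. Of 17 stem, progenitor and leukaemia genes tested, Muc13 rose (1.32-fold) and Erg and Lmo2 fell (1.27-fold and 1.19-fold), and each of the 3 calls was lost on leaving out any of 4 or more of the libraries. For Erg these were PBS 1, PBS 2, PBS 3 and CpG1668 2, and for Muc13 PBS 1, PBS 3, CpG1668 1 and CpG1668 2. Kit (adjusted p = 0.441) was not called, and over all genes tested 2.34% rose and 1.52% fell. Cd93, a marker of early progenitors and monocytes, was below the filter at 0.316, 0.425 and 0.428 RPKM in PBS and 1.56, 1.53 and 1.59 in CpG1668 (adjusted p = 0.0067 without a filter).

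No proliferation gene on the lists was called in the fit reported. Of 37 DNA replication and 31 mitosis genes tested, limma called 0, with 2 of each list at an unadjusted p under 0.05 (medians -0.02 and 0.02). Over all 12071 genes, 3.86% were called and 2281 had an unadjusted p under 0.05. Chaf1b, a subunit of a histone chaperone, was called lower (-0.17) with median-of-ratios scaling and with all 12 libraries in 1 model. Mki67 overlapped at 98.5 to 120.1 RPKM, and Mcm2, a replication helicase subunit, at 37.3 to 40.6. Of 27 sterol and fatty acid synthesis genes limma called 0, with 2 at an unadjusted p under 0.05 (median -0.05), and 1 without PBS 3. Among 20 STAT3 target and feedback genes, 3 rose (Fos, Vegfa and Il4ra) and 0 fell (median 0.04), against 2.34% and 1.52% of all genes tested. Vegfa, the vascular growth factor, went from 6.08, 6.53 and 6.34 RPKM to 7.79, 8.38 and 9.04, a call lost without PBS 1 or CpG1668 2. Of 21 MHC class I genes, H2-Q6 rose 4.06-fold (0.484 to 0.676 RPKM, then 2.08 to 2.40), with near copies in the same family, and B2m rose 1.18-fold, a call lost without any library but PBS 2. Of 7 MHC class II genes, the 2 that rose were Ifi30, a thiol reductase, and Ctss, and the class II chain gene H2-Aa was at 2.10 to 3.17 and 1.47 to 2.07 RPKM (-0.33, adjusted p = 0.212). Of 13 costimulation and checkpoint genes, Vsir rose 1.42-fold and Sirpa 2.15-fold, and Cd274 overlapped at 7.32 to 7.62 RPKM. Ddit4, an inhibitor of mTOR signalling induced by stress and glucocorticoids, rose from 15.6, 15.4 and 15.4 RPKM to 22.7, 25.5 and 27.3 (0.66, adjusted p = 0.0014).

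Immediate-early genes rose in part, with CpG1668 3 apart from the other libraries. Jun, a subunit of AP-1, was at 9.25, 9.48 and 9.02 RPKM in PBS and 34.2, 43.0 and 89.2 in CpG1668 (log2 change 2.34, SE 0.300, adjusted p = 0.0054). Fos, its partner, was at 1.98, 1.94 and 2.31, then 6.16, 5.74 and 11.6 (1.46, adjusted p = 0.012). Dusp1, a phosphatase of MAP kinases, rose from 0.897, 1.31 and 1.03 to 3.46, 3.68 and 7.996 (1.47, adjusted p = 0.021), a call lost without PBS 1 or PBS 3. In all 3 genes CpG1668 3 was about double the others, and the other CpG1668 libraries still lay above all PBS libraries. These were the 3 calls among 23 tested genes of the list, which reads the handling of cells as well as signalling (median 0.25). Over all genes tested, 2.34% were called higher. The heat shock gene Hspa1b, a near copy of Hspa1a, was at 1.39, 5.44 and 4.93 RPKM in PBS and 18.8, 35.2 and 187.8 in CpG1668 and was not called (3.51, adjusted p = 0.056). Without CpG1668 3, 8 of the list were called higher: Jun (1.94, adjusted p = 2.9e-04), Fos, Dusp1, Fosb, Zfp36, Dnajb1, Hspa1a and Hspa1b. With all 12 libraries in 1 model limma called 0 of the list, and Jun, Fos and Dusp1 were not called without a filter either. The part of handling in these differences was not tested.

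**Figure D4:**
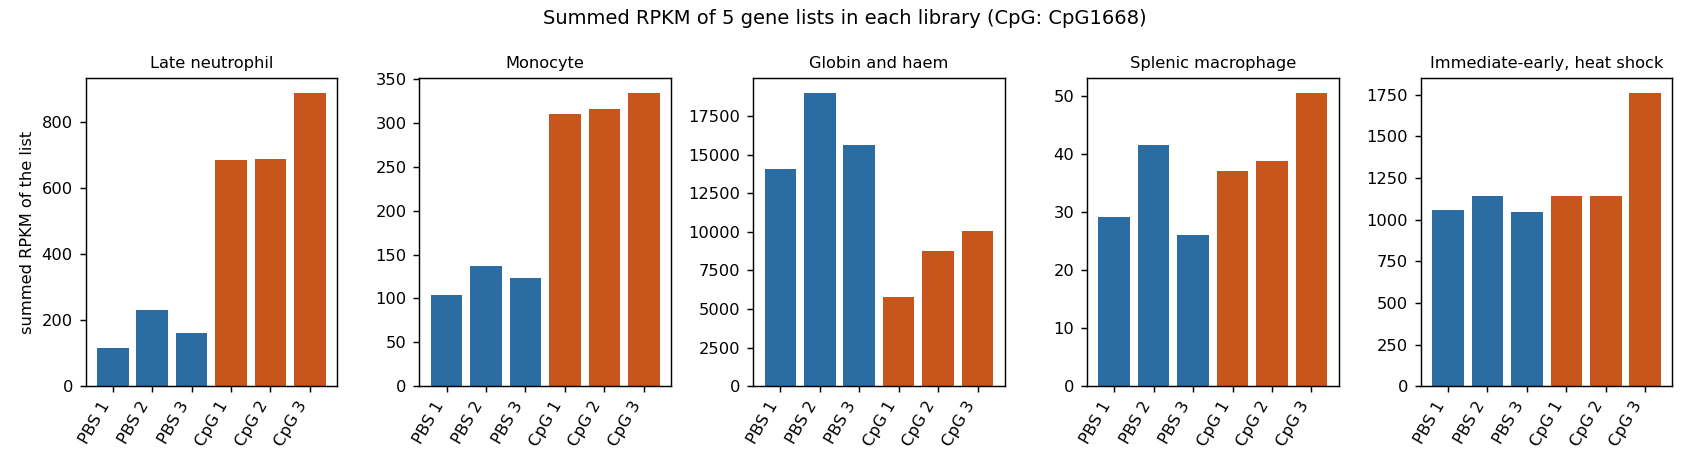
Summed RPKM of 5 gene lists in each of the 6 libraries (bars from 0, blue for PBS, orange for CpG1668). Late neutrophil and monocyte sums are higher and globin sums lower in every CpG1668 library, splenic macrophage sums overlap, and the immediate-early and heat shock sum stands out in CpG1668 3 (1760 RPKM).

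Markers of lymphoid, dendritic, stromal and macrophage cells were low. Of 18 B and plasma cell genes, 2 passed the filter, and the list summed to 7.74 to 8.11 RPKM in PBS and 9.90 to 10.9 in CpG1668. Its one rise was Ighm, the IgM heavy chain, also transcribed without rearrangement in early progenitors, at 0.438, 0.496 and 0.448, then 2.88, 3.46 and 3.31 (log2 change 1.53, adjusted p = 4.9e-05), whereas the light chain gene Igkc lay at 0 to 0.122. Of 23 T, NK and innate lymphoid genes 1 passed the filter and was not called, with Cd3e and Gzma at 0 in all 6 libraries and sums of 10.3 to 12.7 and 9.68 to 13.5 RPKM. Of 18 dendritic cell genes 2 passed and 0 were called (sums 32.6 to 36.9 and 34.1 to 37.7), and of 19 endothelial and stromal genes 3 passed and 0 were called (21.1 to 23.8 and 22.2 to 24.4), with Emcn and Ccl19 at 0. Of 20 splenic macrophage genes 10 passed, and Adgre1, the F4/80 antigen, rose 3.78-fold to 2.52 to 3.69 RPKM. The macrophage sums were 29.1, 41.6 and 26.1 RPKM in PBS and 37.1, 38.9 and 50.5 in CpG1668, overlapping. Complement genes C1qa, C1qb and C1qc were not called, and their PBS 2 values were the highest of the PBS group. Without PBS 2 the macrophage sums no longer overlapped, and 4 of 8 tested members were called higher (Adgre1, C1qa, C1qb and Trf, list median 0.78 against 0.43 with PBS 2). In that fit 259 of all 12086 genes tested were called higher. PBS 2 was thus highest of its group in macrophage, late neutrophil and globin sums, and the part of macrophage RNA in the differences was not tested. The mast cell and basophil sum overlapped (1662 to 1842 and 1702 to 1794 RPKM), with Ear2, an eosinophil ribonuclease, the one rise (2.71-fold), a call lost without CpG1668 1 or CpG1668 2. Of 11 megakaryocyte and platelet genes, Plek fell 1.27-fold, a call lost without any library but PBS 1. Of 15 mitochondrially encoded genes, mt-Nd1 fell 1.32-fold, a call lost without any library but CpG1668 1. Over all genes tested, 2.34% were called higher and 1.52% lower.

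Some of the called genes lie side by side. Among 11780 tested genes with a position in GENCODE M21 (GRCm38), 5 runs of at least 3 neighbours were called in one direction. On chromosome 3, 5 genes from S100a4 to S100a9 (90603771 to 90695721) rose, by 0.57 to 2.23 on the log2 scale, and the tested neighbours on either side, S100a13 and Gm35013, were not called. On chromosome 11, Ccl9, Ccl6, Ccl3, Wfdc17 and Wfdc21 (83572919 to 83752642) rose by at most 1.70, between Taf15 and Heatr6, which were not called. On chromosome 7, Ifitm2, Ifitm1, Ifitm3 and Ifitm6 (140954837 to 141017924) rose by 0.34 to 2.32. The lower runs were Hba-a1, Hbq1b and Hba-a2 on chromosome 11 (32283511 to 32297298) and, on the same chromosome, Ddc, 1700042O10Rik and Grb10 (11814101 to 12038683). The calls of Ddc, 1700042O10Rik, Grb10, S100a6 and Gm19739 were lost on leaving out at least 1 library (CpG1668 2 for S100a6, CpG1668 1 or CpG1668 2 for Grb10, PBS 1, PBS 2, PBS 3 or CpG1668 1 for the rest, with CpG1668 3 for Ddc and CpG1668 2 for 1700042O10Rik and Gm19739). Members of a run are paralogs or neighbours, so each run is less than that many separate observations.

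**Figure D5:**
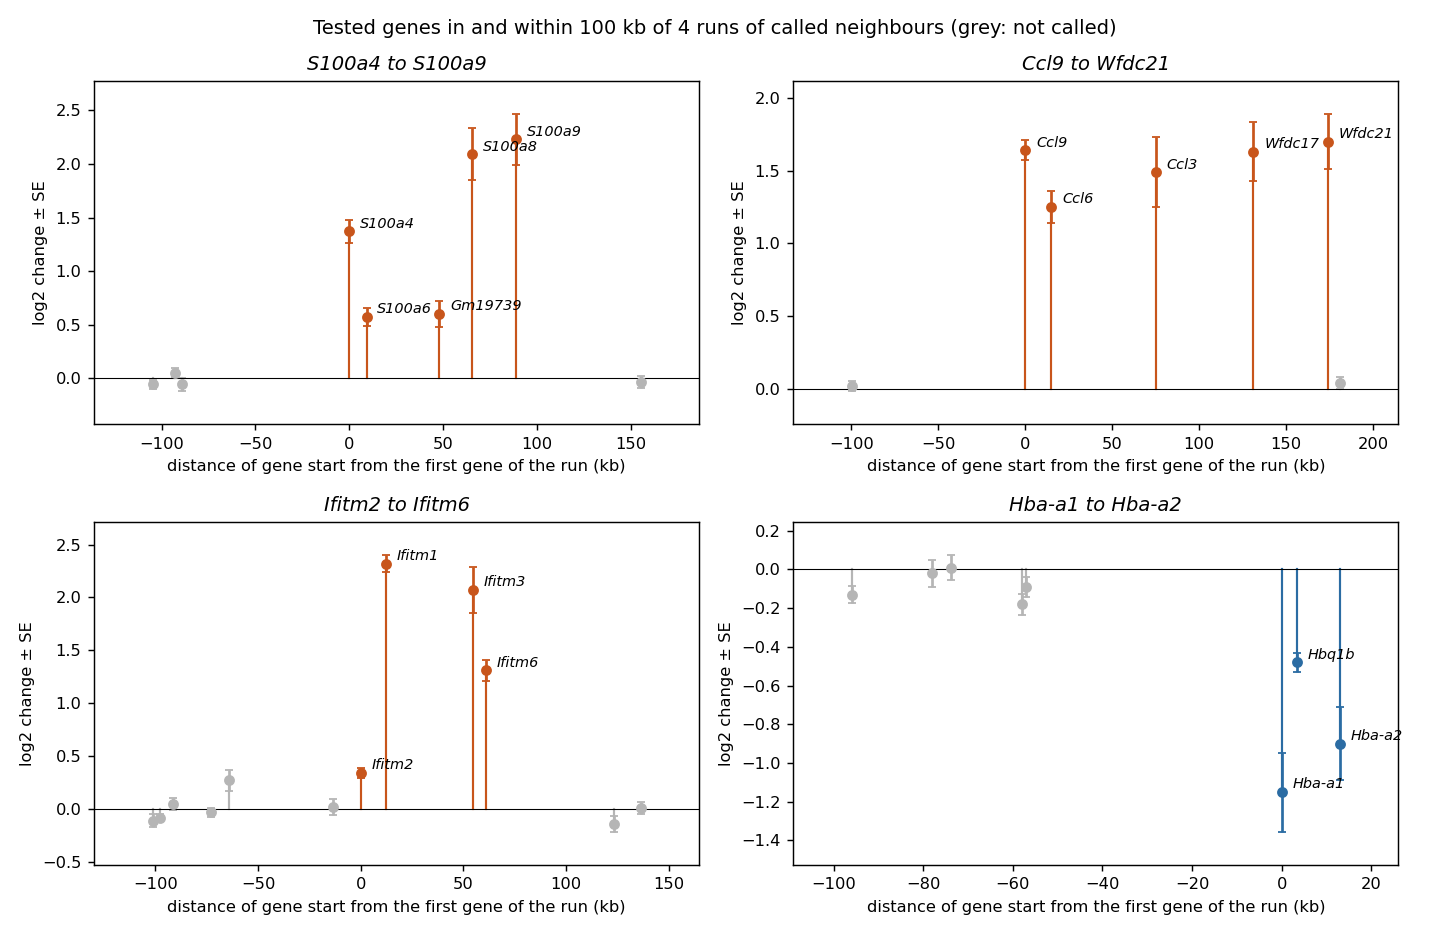
Log2 change ± SE of tested genes in and within 100 kb of 4 of the runs, against distance in kb from the start of the run. Called genes stand at up to 2.32 (Ifitm1) or down to -1.15 (Hba-a1), and the grey neighbours that were not called stay close to 0.

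Doxycycline gave the test of whether the CpG1668 difference was particular to mice without it. In the interaction of CpG1668 and Dox over all 12 libraries, limma called 0 of 12071 genes (0%), with 818 at an unadjusted p under 0.05 and a smallest adjusted p of 0.299. Mpo was at 17.4 ± 6.16 RPKM in Dox and 86.9 ± 32.8 in CpG1668+Dox (SD, n = 3), and its difference was smaller there by 1.66 on the log2 scale without passing the test (interaction -1.66, adjusted p = 0.413). F13a1 was at 2.99 ± 0.301 and 11.5 ± 1.78 (interaction -0.46, adjusted p = 0.511), and Klf4 at 1.48 ± 0.144 and 4.64 ± 0.355 (interaction 0.00, adjusted p = 0.999). Hbb-bs was at 1465 ± 790.0 and 1367 ± 523.3 (interaction 1.01, adjusted p = 0.816). Serpinb1a was at 91.8 ± 18.9 and 55.3 ± 1.27 (interaction 0.51, adjusted p = 0.564). None of these interactions passed the test, which does not show that the differences are alike with and without doxycycline.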

How the data were processed

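RNA of sorted leukaemia cells was sequenced in 12 libraries, and the 3 PBS and 3 CpG1668 libraries were compared here, grouped by title. The authors deposited one table per library with RPKM for 33531 gene symbols. Per the submitters' processing notes the tools were Partek 7.18.0723 and STAR 2.7.9 and the build mm10, with no roles given, and the annotation is not given in the sources used here. Values above 0 go down to 1.4e-45, and whole counts could not be recovered (77.5% to 78.6% of 3907 to 4078 genes fell less than 0.05 from a whole number of reads). Of the symbols, 32312 (96.4%) matched GENCODE M21.

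Genes averaging 1 RPKM or more across the 6 libraries entered a limma 3.58.1 fit (R 4.3.3) of log2(RPKM + 1), two-sided and with an intensity trend. Benjamini-Hochberg adjustment covered all of them. Log2 changes of low genes are shrunk by the pseudocount of 1, so ratios of mean RPKM are given too. The fit was tested on simulated data. Genes named were the 15 largest changes in each direction among called genes with at least 5 RPKM in the higher group and no overlap, leaving out predicted models and pseudogenes, up to 6 members of each list, genes fixed by name, runs of neighbours and counts of 5 or fewer. Some genes so taken are not reported here, and other list members were chosen after their values were seen. The comparison and the gene lists were chosen with earlier results of these data known. The limit of 3 reads covers counting error only. Alternatives were the pseudocount, the filter, scaling, the trend, 12-library fits, a late neutrophil covariate, a block for the replicate number and dropping each library in turn.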

Additional observations from a re-analysis of the deposited data

How the results depend on the processing

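The main counts of calls (466, with 283 higher and 183 lower) were 489 with a pseudocount of 0.1 RPKM, 453 with median-of-ratios scaling, 488 with quantile normalization and 409 without the intensity trend, and those scalings moved the median log2 change of all genes by no more than 0.02. With a filter of 5 RPKM, 305 genes were called (134 higher, 171 lower), and with none 593 (508 higher, 85 lower). One model of all 12 libraries called 630 (305 higher, 325 lower), and a covariate made of the late neutrophil mean left 49 (41 higher, 8 lower). Higher calls were thus 60.7% of all as reported, 85.7% without a filter, 43.9% with that of 5 RPKM, 48.4% with all 12 libraries and 83.7% with the covariate. Leaving out 1 library gave 249 to 349 calls, 178 to 259 higher and 55 to 95 lower, and 153 higher and 31 lower genes kept their call in all 6 such fits. The interaction had 4 calls without a filter and 0 to 1 on leaving out 1 library, with 1 without CpG1668 1 and 1 without CpG1668+Dox 1.

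Monocyte genes called higher numbered 6 with the filter of 5 RPKM and 10 with the covariate (median 0.62, then 1.00, and 1.28 as reported). Late neutrophil genes called higher numbered 9 and 0 (median 2.05, then -0.01, and 1.56 as reported). Under that filter 9 members were tested on each of these lists. Globin and haem genes called lower numbered 0 without a filter, 2 without the trend, 2 with all 12 libraries, 0 with the covariate and 1 to 5 on leaving out 1 library. Their median was -0.39 as reported, -0.31 without a filter, -0.29 with the covariate and -0.43 to -0.24 on leaving out 1 library. Red cell membrane and enzyme genes called lower numbered 2 without a filter, 0 with the covariate and 3 to 8 on leaving out 1 library, with medians of -0.36 as reported and without a filter, -0.39 with the covariate and -0.40 to -0.29 on leaving out 1 library. The 6 calls on the primary granule list held under each alternative but the covariate and the filter of 5 RPKM, which left 5 each, since Ms4a3 was below that filter. With the covariate, which is built from the late neutrophil genes, the sign turned for S100a8 (-0.02), Ifitm6 (-0.37), Lcn2 (-0.03), Mmp9 (-0.53), Cd177 (-0.18), Ly6g (-0.44), Wfdc21 (-0.01), Lrg1 (-0.21), Pglyrp1 (-0.16), Fpr2 (-0.65), Selplg (-0.04) and H2ac12 (0.15). The cause of the other changes was not tested. Of 140 calls of named genes and list members, 88 were kept on leaving out each library in turn (79 of 100 higher, 9 of 40 lower).

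The replicate numbers are shared by the groups but are not said to mark a mouse or a day. Deviations of same-numbered libraries did not correlate positively (r = -0.0635, -0.0739 and -0.226), and no library correlated best with its own number. The deviations are taken from each group's own mean and sum to 0 within it. These correlations therefore cannot decide whether same-numbered libraries shared a mouse or a day. With a replicate block, 327 genes were called (223 higher, 104 lower), which has fewer residual degrees of freedom.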
